A study of Mus musculus with 12 samples.

Results

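The genes described here are 9 transporters and channels that move chloride, bicarbonate and protons across the colon epithelium, Slc26a2, Slc26a3, Slc26a6, Slc9a2, Slc9a3, Slc4a4, Slc12a2, Cftr and Clcn2. They were taken by symbol, and all 9 were found among the 24391 gene symbols of the tables. The libraries came from colon epithelial cells of C57BL/6 mice aged 18 weeks, 4 labelled control, 4 from mice given AOM and DSS (AOM/DSS), and 4 from mice given AOM, DSS and curcumin, called the curcumin group. AOM, azoxymethane, is a carcinogen, DSS, dextran sulfate sodium, is a polymer that injures and inflames the colon lining, and curcumin is a plant polyphenol. Doses and schedules are not given in the sources used here, and curcumin without AOM and DSS was not among the groups. Cells were obtained by scraping the mucosa after the proximal segment and right-sided tumours had been cut away, so each library is a bulk measure of mixed epithelium in which fewer cells of a type and less RNA per cell cannot be told apart. No label says that libraries are separate animals, so the p-values measure the spread between libraries.

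Surface colonocytes absorb salt by pairing an apical sodium/proton exchanger with an apical chloride/bicarbonate exchanger, so that sodium and chloride enter while protons and bicarbonate leave and combine in the lumen. Crypt cells secrete chloride by loading it across the basolateral membrane with a sodium-potassium-chloride cotransporter and releasing it through the apical channel CFTR. The human gene SLC26A3, also called DRA for "down-regulated in adenoma", is mutated in congenital chloride diarrhoea. Carbonic anhydrases supply both exchangers with bicarbonate and protons.

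The values are FPKM (fragments scaled to gene length and to the depth of the library), so levels can be set roughly beside each other between genes and between libraries. The FPKM of all genes did not sum to the same value in all libraries, running from 441863 in control 0 to 565893 in curcumin 0. Reads assigned to genes numbered from 5567988 to 15968416 per library. Markers of epithelium summed to 5660 to 8283 FPKM in control, 5214 to 8182 in AOM/DSS and 5316 to 9497 in curcumin libraries, with all 7 of those genes detected and none of them called different. Macrophage, B cell, T cell, fibroblast, smooth muscle, endothelial and enteric neuron or glia lists each summed to under 100 FPKM in every library. No tested gene of these lists was called in any comparison. Their sums were not even between libraries. B and plasma cell genes summed to 9.76 to 23.5 FPKM in control, 4.27 to 95.5 in AOM/DSS and 2.87 to 15.3 in curcumin libraries. Macrophage genes summed to 7.52 to 46.3, 16.3 to 55.9 and 4.13 to 29.2 FPKM in the same order. Red blood cell genes summed to 33.1 to 180 FPKM in control, 9.9 to 182 in AOM/DSS and 14.6 to 20.6 in curcumin libraries. Small intestine genes summed to 88.4 to 585, 110 to 387 and 263 to 410 FPKM. Neither of these lists held a called gene. The libraries were also split here into 2 classes that the labels do not name. For each library, the deviations of its genes from their means over the 12 libraries were correlated with gene GC content. This correlation ran from -0.407 to 0.485, and the split was made at 0, with control 3 at -0.123. In 5 libraries (control 0, AOM/DSS 0 and 1, curcumin 0 and 1), called GC-rich, genes of high GC content stood higher than in the other 7, called AT-rich. The values within each class are given beside the main result.

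Slc26a3, the apical chloride/bicarbonate exchanger of surface colonocytes, was the most abundant of the 9 genes in all 12 libraries. Its FPKM was 553, 630, 534 and 779 in control libraries 0 to 3. The 4 AOM/DSS libraries held 185, 249, 299 and 133. In the curcumin group the values were 588, 507, 589 and 646. Every AOM/DSS library lay below every other library, while control and curcumin libraries overlapped. The group means were 624 ± 111 FPKM in controls, 217 ± 72.8 in AOM/DSS and 582 ± 57 with curcumin (SD, n = 4 each). These levels rest on 5288 to 31192 reads per library.

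**Figure D1:**
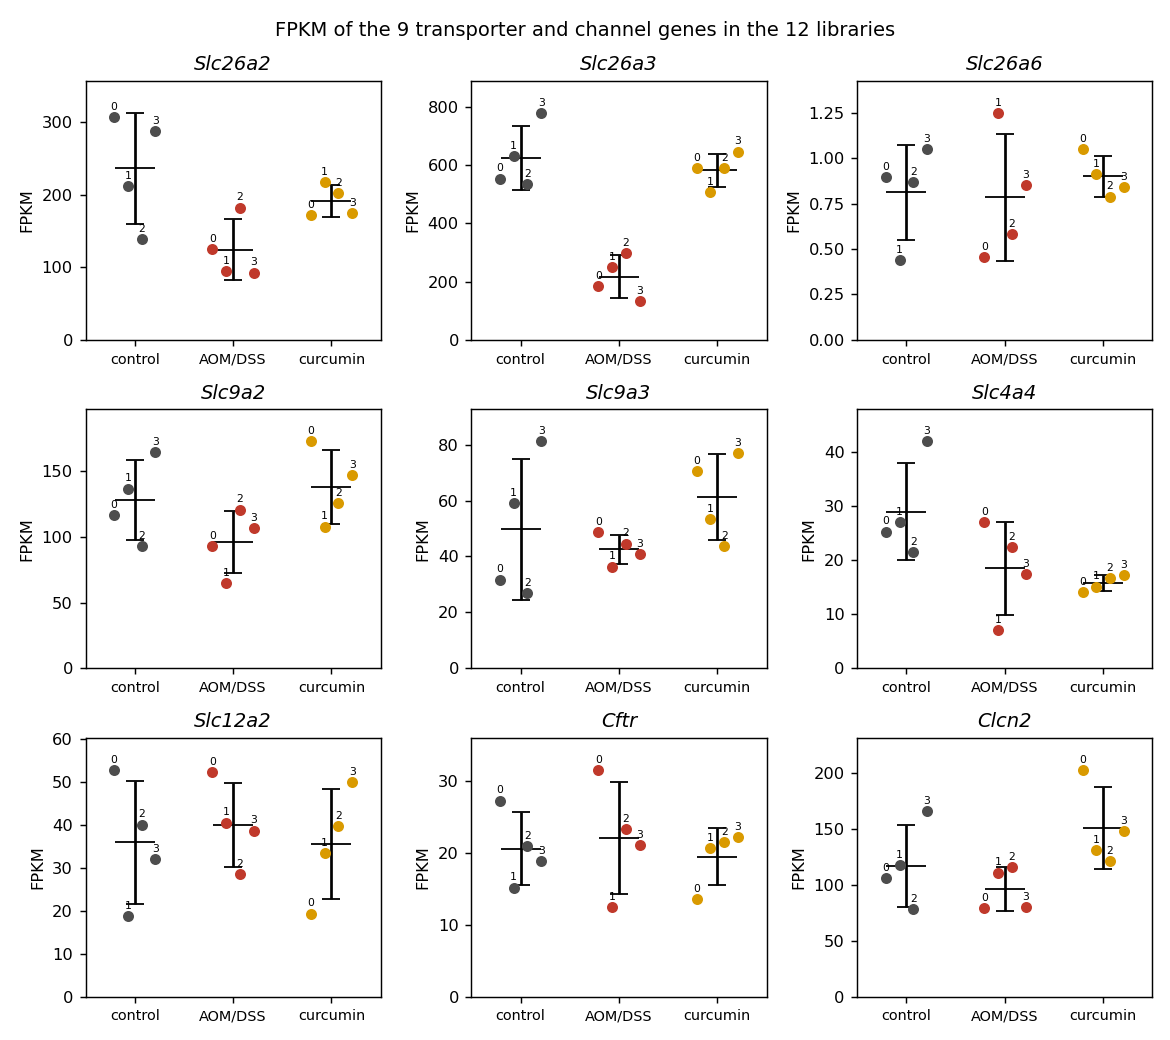
FPKM of the 9 genes on a linear axis from 0, with 1 panel per gene. Points are single libraries with their replicate number, the long bar is the group mean and the error bar its SD (n = 4). The AOM/DSS points of Slc26a3, from 133 to 299 FPKM, lie below all control and curcumin points.

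Differences were tested with limma on log2(FPKM + 1) across 12052 genes, with Benjamini-Hochberg adjustment, and a gene is said to be called where its adjusted p was below 0.05. Slc26a3 fell 2.97-fold in AOM/DSS against control (log2 fold change -1.57, SE 0.22, 95% interval -2.05 to -1.09, adjusted p = 0.00433). It was 2.79-fold higher with curcumin than in AOM/DSS (1.48, SE 0.22, 95% interval 1.01 to 1.96, adjusted p = 0.00792). Curcumin and control libraries differed by -0.09 (95% interval -0.57 to 0.39, adjusted p = 0.903), an interval that leaves room for a difference of up to 0.57 on the log2 scale. The first 2 comparisons share the AOM/DSS libraries, so they are not independent of each other.

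Slc26a3 was the single called member in each of these comparisons. In AOM/DSS against control, 1 of the 8 tested genes was called, beside 1.27% of all tested genes. In curcumin against AOM/DSS, 1 of 8 was called, beside 1.08% of all tested genes. No member was called in curcumin against control, where 0.141% of all tested genes were. An unadjusted p below 0.05 was reached by 3, 4 and 1 of the 8 members in the 3 comparisons, beside 1622, 1742 and 1468 of the 12052 tested genes.

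**Figure D2:**
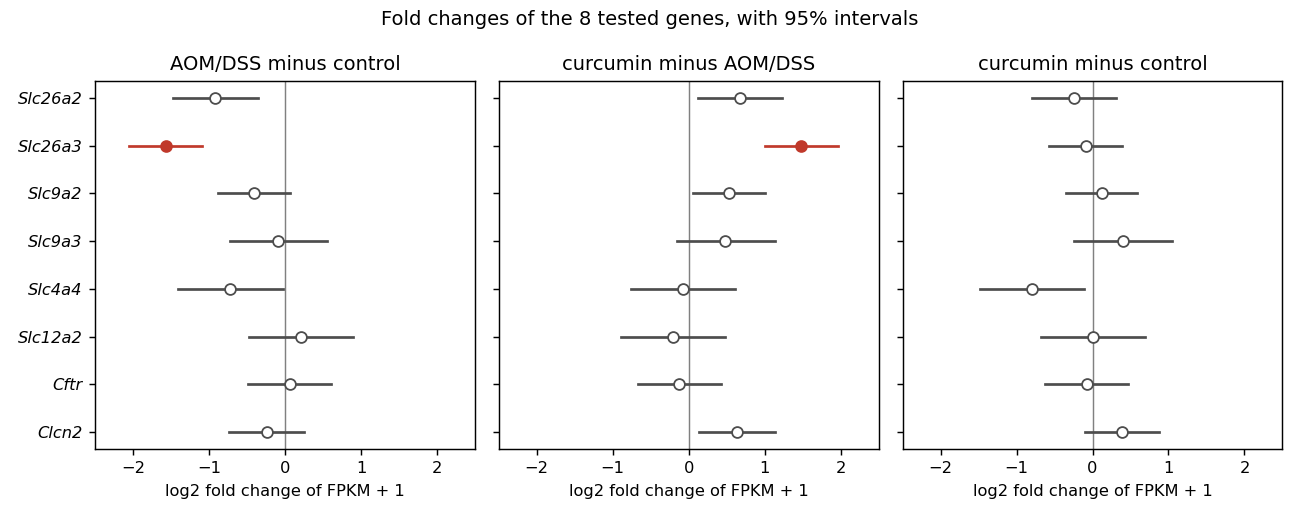
Log2 fold changes of FPKM + 1 for the 8 tested genes in the 3 comparisons, with 95% intervals from limma. Filled red points have an adjusted p below 0.05. Slc26a3 is the single filled point, at -1.57 in AOM/DSS minus control and 1.48 in curcumin minus AOM/DSS.

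The Slc26a3 difference was present in both GC classes of library. Among the 5 GC-rich libraries the control held 553 FPKM, the AOM/DSS libraries 185 and 249, and the curcumin libraries 588 and 507. Among the 7 AT-rich libraries the controls held 534 to 779, the AOM/DSS libraries 299 and 133, and the curcumin libraries 589 and 646. Fitted on the GC-rich libraries alone, the log2 fold changes were -1.36 against control and 1.34 for curcumin against AOM/DSS, with adjusted p = 0.393 and 0.135. On the AT-rich libraries alone they were -1.68 and 1.62, with adjusted p = 0.135 and 0.271. The sizes were thus close to those over all libraries, but in these small fits the call was lost.

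Leaving out any 1 of the 12 libraries kept both calls, with log2 fold changes from -1.75 to -1.36 (adjusted p up to 0.0225) and from 1.27 to 1.66 (adjusted p up to 0.0307). The smallest sizes came without AOM/DSS library 3, which had the lowest Slc26a3 of all libraries at 133 FPKM. That library also had the lowest sum of distal Hox genes, 182 FPKM against 324 to 501 in the control and curcumin libraries and 342 to 477 in the other AOM/DSS libraries. Genes listed for the proximal colon, whose segment had been cut away, summed to 483 FPKM in that library. Their sums were 67.2 to 306 in the other AOM/DSS libraries, 93 to 358 in controls and 320 to 596 with curcumin. Of the 5 genes in this proximal list, 4 were found and 2 were tested. No tested gene of either list was called. Whether the stretch of colon sampled bears on the result was not tested.

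**Figure D3:**
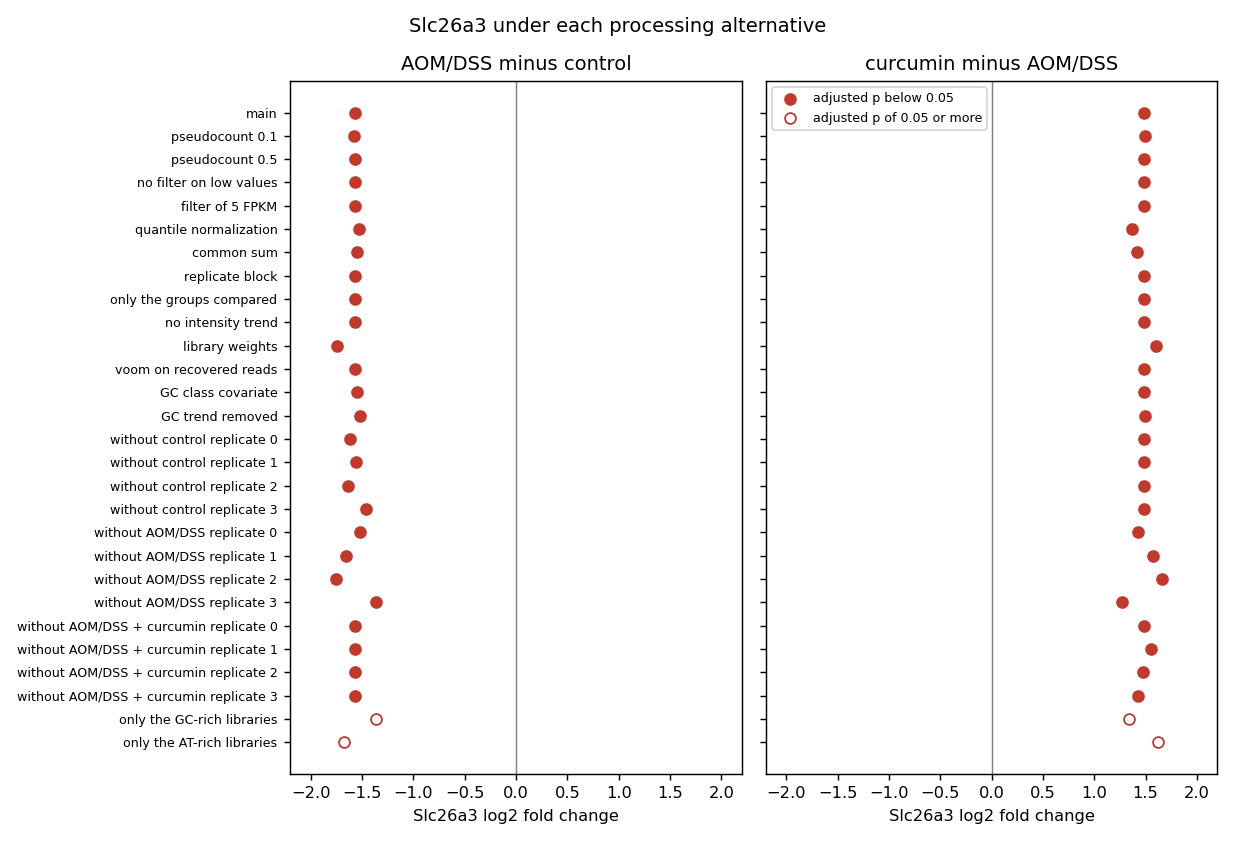
Log2 fold change of Slc26a3 in the main fit and under 27 processing alternatives, each on its own line, for AOM/DSS minus control and curcumin minus AOM/DSS. Filled points have an adjusted p below 0.05. All points lie between -1.75 and -1.36 on one side and 1.27 and 1.66 on the other, and the open points are the fits within a single GC class.

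The summed level of genes that mark surface colonocytes, the cells in which Slc26a3 is known to act, was also low in the AOM/DSS libraries. The summed FPKM of Krt20, Aqp8, Car4, Cdhr5 and Ceacam20 was 2337 to 3132 in controls, 1677 to 2032 in AOM/DSS and 2603 to 4696 with curcumin. The AOM/DSS sums thus lay below the rest. Car4 made up a large part of the sum, at 1089 ± 86.5, 532 ± 130 and 1139 ± 380 FPKM in the same order. A low sum is therefore not a fall of every gene in it. The water channel Aqp8 (1.92, adjusted p = 0.00341) and the carbonic anhydrase Car4 were called higher with curcumin than in AOM/DSS. Car4 alone was called lower in AOM/DSS than in control. The Aqp8 call was lost within a single GC class, where its log2 fold change was 1.78 (AT-rich) and 2.06 (GC-rich). The keratin Krt20 (0.12 in AOM/DSS against control, adjusted p = 0.895), the cadherin-related gene Cdhr5 (-0.16, adjusted p = 0.776) and Ceacam20 (-0.39, adjusted p = 0.322) were not called in either comparison. Goblet cell markers summed to 3163 to 4625, 4261 to 6374 and 5213 to 7012 FPKM in control, AOM/DSS and curcumin libraries. Of the 5 tested goblet genes, Spink4 was called, higher in AOM/DSS than in control (log2 fold change 1.28, adjusted p = 0.014). Its call was lost without control library 3 (1.12, adjusted p = 0.0537) and within a single GC class. It was also lost in a fit of only the control and AOM/DSS libraries (adjusted p = 0.0709). The other goblet genes were not called in any comparison. Markers of crypt base and cycling cells summed to 17.8 to 55.9, 34.6 to 78 and 31.6 to 60.3. The part of these shifts in the Slc26a3 result was not tested.

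The 250 bases before the annotated start of Slc26a3 are shown because it is the gene the results turn on (RefSeq, GRCm38.p6, chr12:31437969-31438218, plus strand). RefSeq promoters were at hand for 6 of the 9 genes. Capitals mark 2 copies of GTTAAT, a core of the site known for Hnf1 factors, and 1 TATAAA.
Slc26a3: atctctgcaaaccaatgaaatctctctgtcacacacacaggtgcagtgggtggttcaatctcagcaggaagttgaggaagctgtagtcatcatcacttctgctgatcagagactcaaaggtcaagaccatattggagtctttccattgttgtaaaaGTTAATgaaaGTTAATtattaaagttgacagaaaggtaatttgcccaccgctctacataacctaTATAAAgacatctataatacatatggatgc
The first letters of the GTTAAT copies lie at -94 and -84 and that of TATAAA at -30, counted back from the start. Searched on both strands, GTTAAT was in 6.43% of the 32851 promoters of this length. It was at 2 or more places in 0.441% of them, a count not planned before the search. TATAAA was in 12.4% of them, and in 1.75% it began 25 to 35 bases before the start on the strand of the gene, a window set after the match was seen. The other motifs searched in the same way were TTTATG (Cdx, 10.8% of promoters), CAAAGTCCA (Hnf4, 0.384%), CACGTG (E-box, 6.02%) and TTATGTAA (D-box, 0.819%), none of which was in these bases of Slc26a3. Of the other 5 genes with a promoter, Slc9a3 held CACGTG at -87, and Slc26a6, Slc4a4, Cftr and Clcn2 held none of the 6 motifs. These are matches of letters, none overlaps another, and no binding was measured.

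Slc26a2, a sulfate transporter of the same family that also exchanges chloride and other anions, was next in mean level after Slc26a3 in every group. It stood at 306, 212, 139 and 287 FPKM in controls. In AOM/DSS the values were 125, 94.8, 182 and 92.6. With curcumin they were 172, 217, 202 and 174. Control library 2 lay among the AOM/DSS values and AOM/DSS library 2 among the curcumin values, so the groups overlapped. The means were 236 ± 76.4, 124 ± 41.7 and 191 ± 22.2 FPKM (SD, n = 4). The difference of AOM/DSS from control was -0.92 on the log2 scale (SE 0.26, 95% interval -1.47 to -0.36) with adjusted p = 0.108, so it was not called. Without control library 2 it was -1.15 with adjusted p = 0.0349, and without AOM/DSS library 2 it was -1.12 with adjusted p = 0.0441. Those were the 2 of 12 leave-outs that gained the call. Over all 12 the difference ran from -1.15 to -0.77, with adjusted p up to 0.342. Curcumin against AOM/DSS gave 0.67 (95% interval 0.12 to 1.23, adjusted p = 0.238), and curcumin against control gave -0.24 (adjusted p = 0.742).

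Slc26a6, an anion exchanger better known from the small intestine, kidney and pancreas, was the lowest of the 9 genes in all 12 libraries. Its FPKM ran from 0.439 to 1.05 in controls, 0.454 to 1.25 in AOM/DSS and 0.789 to 1.05 with curcumin, resting on 7 to 44 reads a library. It reached 1 FPKM in 3 of the 12 libraries and was therefore left out of the test, which needed 4. When every gene was tested, it differed by -0.03, 0.11 and 0.08 on the log2 scale in the 3 comparisons (adjusted p from 0.788 to 0.962). At this depth a change of the size seen in Slc26a3 would be hard to see in Slc26a6, because the added 1 FPKM holds down its fold change.

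The sodium/proton exchangers of the apical membrane are NHE2, from Slc9a2, and NHE3, from Slc9a3. Slc9a2 stood at 117, 137, 93.3 and 165 FPKM in controls, 93.1, 65.1, 121 and 107 in AOM/DSS, and 173, 108, 126 and 147 with curcumin. The lowest value came from AOM/DSS, and the 3 groups overlapped. Slc9a2 differed by -0.41 in AOM/DSS against control (95% interval -0.88 to 0.06, adjusted p = 0.447) and by 0.53 in curcumin against AOM/DSS (95% interval 0.06 to 1.00, adjusted p = 0.28). Slc9a3 stood at 31.7, 59, 27 and 81.2 FPKM in controls, 48.6, 36.4, 44.6 and 40.9 in AOM/DSS, and 70.6, 53.4, 43.7 and 77.1 with curcumin. Its controls spread so widely that all AOM/DSS values fell inside their range. Slc9a3 differed by -0.09 (95% interval -0.73 to 0.55, adjusted p = 0.928) in the first comparison and by 0.48 (95% interval -0.16 to 1.13, adjusted p = 0.49) in the second. Neither exchanger was called, and the intervals of both still hold changes of more than 0.5 on the log2 scale.

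On the basolateral side, Slc4a4 encodes the sodium/bicarbonate cotransporter NBCe1 and Slc12a2 the sodium-potassium-chloride cotransporter NKCC1, which loads the cell with chloride for secretion. Slc4a4 stood at 25.3, 27, 21.5 and 42 FPKM in controls, 27.1, 7.01, 22.4 and 17.4 in AOM/DSS, and 14.1, 15.1, 16.7 and 17.2 with curcumin. All 4 curcumin libraries lay below all 4 controls, with a mean of 15.8 ± 1.43 against 29 ± 9 FPKM, while AOM/DSS overlapped both. The difference of curcumin from control was -0.80 (SE 0.32, 95% interval -1.48 to -0.11, adjusted p = 0.344) and was not called. Slc4a4 was thus 1 of 8 tested members whose control and curcumin libraries did not overlap, beside 8.26% of all tested genes. AOM/DSS against control gave -0.72 (adjusted p = 0.34), which moved to -0.34 without AOM/DSS library 1, whose 7.01 FPKM was the lowest value of the gene.

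Slc12a2 stood at 52.9, 18.8, 40.1 and 32 FPKM in controls, 52.3, 40.6, 28.5 and 38.7 in AOM/DSS, and 19.4, 33.5, 39.7 and 50.1 with curcumin. Its group means of 36 ± 14.3, 40 ± 9.76 and 35.7 ± 12.8 FPKM lay within the spread of any 1 group. AOM/DSS differed from control by 0.21 (95% interval -0.48 to 0.90, adjusted p = 0.817) and curcumin from control by 0.00 (adjusted p = 0.996). Both signs turned under some of the alternative settings. The ratio of Slc26a3 to Slc12a2 FPKM within a library was 10.4 to 33.5 in controls, 3.44 to 10.5 in AOM/DSS and 12.9 to 30.2 with curcumin.

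Cftr, the cAMP-regulated apical chloride channel whose human form is mutated in cystic fibrosis, overlapped Slc12a2 in the range of its levels. It stood at 27.3, 15.2, 21 and 18.9 FPKM in controls, 31.6, 12.5, 23.3 and 21.1 in AOM/DSS, and 13.6, 20.7, 21.5 and 22.2 with curcumin. The groups overlapped throughout. Cftr differed by 0.06 in AOM/DSS against control (95% interval -0.49 to 0.60, adjusted p = 0.944), by -0.13 in curcumin against AOM/DSS (adjusted p = 0.877) and by -0.07 in curcumin against control (adjusted p = 0.937). A change of the size seen in Slc26a3 lay outside the interval of the first comparison.

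Clcn2 encodes the chloride channel ClC-2, placed on the basolateral membrane of mouse surface colonocytes. It stood at 106, 118, 78.1 and 166 FPKM in controls, 79.4, 111, 116 and 80.1 in AOM/DSS, and 203, 131, 121 and 148 with curcumin. All 4 curcumin libraries lay above all 4 AOM/DSS libraries, and the controls overlapped both. The curcumin difference from AOM/DSS was 0.63 (SE 0.23, 95% interval 0.14 to 1.13, adjusted p = 0.216) and was not called. Slc26a3 and Clcn2 were the 2 of 8 tested members without overlap in this comparison, beside 9.22% of all tested genes. In AOM/DSS against control, Slc26a3 was 1 of 8, beside 6.02%. Clcn2 shares 2.8% and Cftr 1.7% of its exon bases with genes on the other strand, and the strand setting of the counting is not stated. No exon base of the other 7 genes overlapped another gene in the GRCm38 annotation.

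Over the 8 tested genes, the median difference of AOM/DSS from control was -0.33 on the log2 scale, beside 0.02 over all tested genes, with 2 members higher and 6 lower in mean. For curcumin against AOM/DSS the median was 0.51, beside -0.01, with 5 higher and 3 lower. For curcumin against control it was -0.03, beside 0.01, with 4 members on each side. The summed FPKM of the 9 genes was 955 to 1572 in controls, 531 to 838 in AOM/DSS and 1087 to 1281 with curcumin. Slc26a3 made up 45.3% to 56% of that sum in controls, 25% to 40.4% in AOM/DSS and 46.6% to 50.7% with curcumin. The sum holds Slc26a3 itself, so its low AOM/DSS values are not a separate result. Of the 8 tested genes, only Slc26a3 had AOM/DSS and control libraries that did not overlap.

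**Figure D4:**
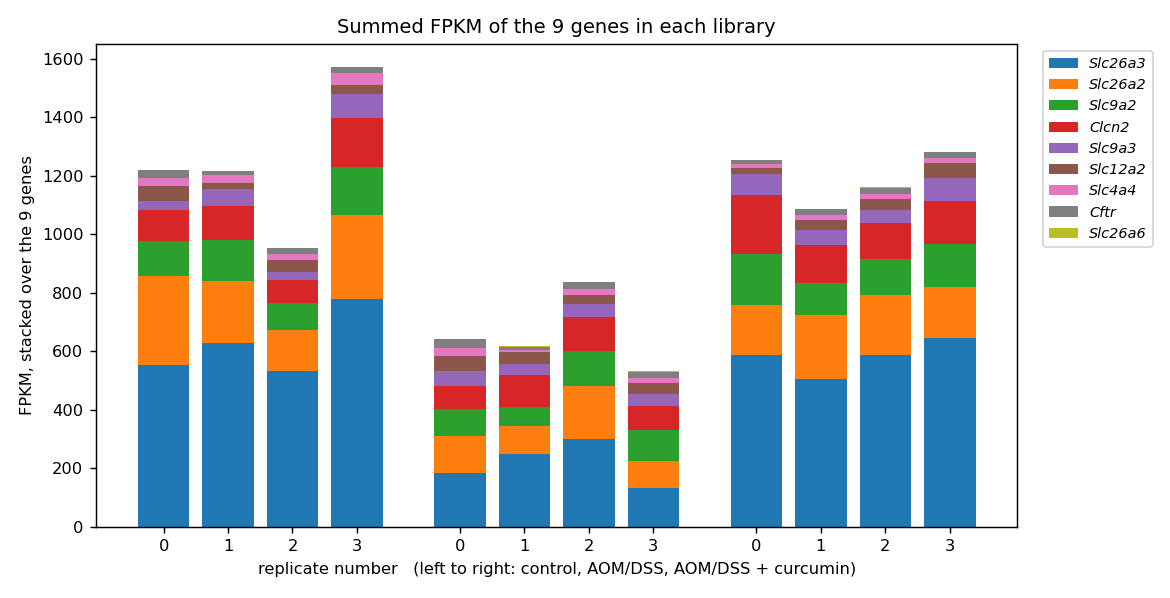
Summed FPKM of the 9 genes in each library, stacked by gene, with replicate numbers under the bars and the groups from left to right. The AOM/DSS bars reach 531 to 838 FPKM and the others 955 to 1572. The Slc26a3 segment at the foot of each bar is shortest in AOM/DSS and is part of the bar heights compared.

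The order of mean levels in controls was Slc26a3, Slc26a2, Slc9a2, Clcn2, Slc9a3, Slc12a2, Slc4a4, Cftr and Slc26a6. Only the first and the last step of that order had ranges that did not overlap between neighbours. In AOM/DSS the ranges of Slc26a3 and Slc26a2 overlapped, at 133 to 299 against 92.6 to 182 FPKM, though Slc26a3 was the higher of the pair in all 4 libraries. Slc9a2 lay above Slc9a3 without overlap in all 3 groups, at 93.3 to 165 against 27 to 81.2 FPKM in controls.

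Several genes ranked the control libraries alike. Control library 3 was the highest of its group for 6 of the 9 genes (Slc26a3, Slc26a6, Slc9a2, Slc9a3, Slc4a4 and Clcn2) and control library 2 the lowest for 6 (Slc26a2, Slc26a3, Slc9a2, Slc9a3, Slc4a4 and Clcn2). Slc12a2 and Cftr followed another order, with control library 0 highest and control library 1 lowest for both. Likeness was measured as the root mean square difference between the log2(FPKM + 1) values of 2 genes over the 12 libraries, each centred on its own mean. By this measure the closest member to Slc26a3 was Slc26a2, at 0.485, and the farthest Slc12a2, at 1.01. Slc12a2 and Cftr lay 0.352 apart, Slc9a2 and Clcn2 0.296, and Slc9a3 and Clcn2 0.305. The distance also depends on how much each gene varies. The root mean square deviation of a gene from its own mean was 0.777 for Slc26a3, 0.461 for Slc12a2 and 0.354 for Cftr. All genes of 1 library share its depth and GC class, so these distances describe the libraries and carry no test.

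Among 8101 other tested genes with a mean of at least 5 FPKM, the 5 nearest to Slc26a3 included Slc15a1, Tgm3, Gjb5 and Slc20a1, at 0.203, 0.253, 0.277 and 0.306, beside a median of 0.807 over all of those genes. Slc15a1, the peptide transporter PEPT1, stood at 139 ± 27.2 FPKM in controls, 45.1 ± 12.7 in AOM/DSS and 97.8 ± 13.9 with curcumin. Tgm3, a transglutaminase, stood at 787 ± 122, 328 ± 141 and 651 ± 51.9. Gjb5, a connexin, stood at 30.6 ± 9.03, 9.43 ± 2.6 and 23.4 ± 8.16. All of these were chosen for a profile like that of Slc26a3, so low AOM/DSS values follow from the choice. Slc20a1, a sodium/phosphate cotransporter, stood at 190 ± 69.1, 62.7 ± 18.6 and 190 ± 26.6 (SD, n = 4 for all).

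**Figure D5:**
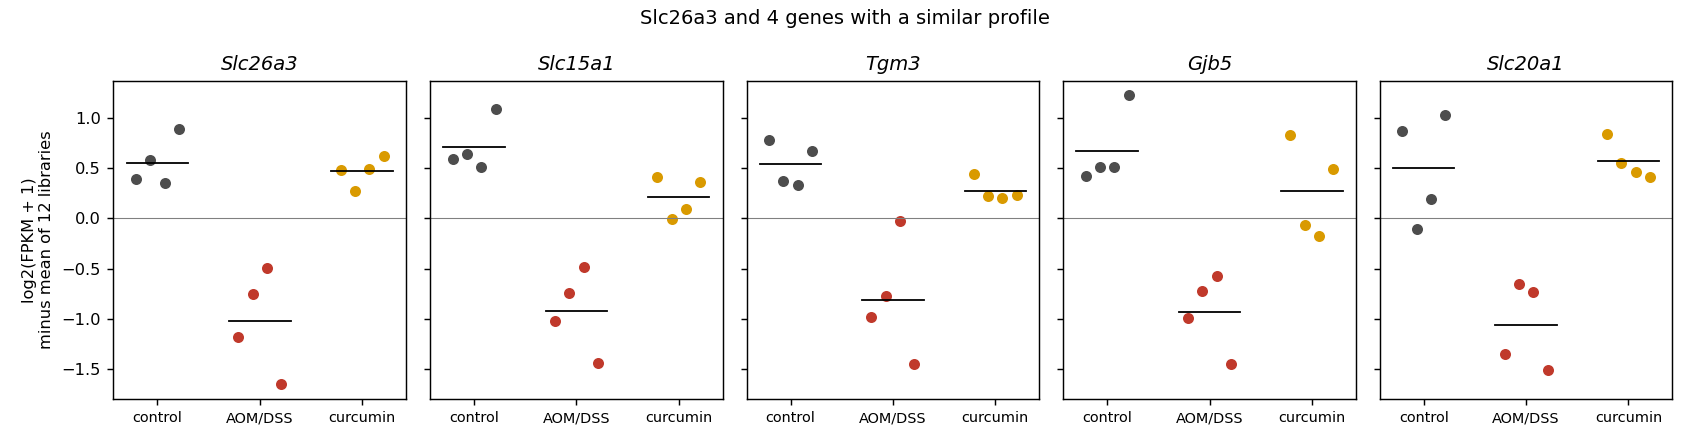
Log2(FPKM + 1) of Slc26a3 and 4 of its nearest genes, each minus its mean over the 12 libraries, with 1 point per library in replicate order and a line at each group mean. The genes were chosen for this likeness, and their root mean square difference from Slc26a3 is 0.203 (Slc15a1) to 0.306 (Slc20a1).

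The wider transport machinery was read from 7 lists with 74 genes, 44 of them tested. In AOM/DSS against control 2 of the 44 were called, both lower, beside 1.27% of all tested genes. In curcumin against AOM/DSS 2 were called, both higher, beside 1.08%. The 2 genes were the same in both comparisons, the carbonic anhydrases Car2 and Car4. No gene of these lists was called in curcumin against control, where 0.141% of all tested genes were. Car2, the cytosolic enzyme, went from 962 ± 76.3 FPKM in controls to 455 ± 89.8 in AOM/DSS (-1.09, SE 0.15, adjusted p = 0.00433) and stood at 866 ± 83.5 with curcumin (0.94 against AOM/DSS, SE 0.15, adjusted p = 0.0126). Both Car2 calls held without any 1 library and were lost within the AT-rich and the GC-rich class, where the log2 fold changes were -1.13 and -0.99 for AOM/DSS against control (adjusted p = 0.134 and 0.501) and 0.94 in both classes for curcumin against AOM/DSS (adjusted p = 0.327 and 0.255). Car4, the membrane-bound enzyme of the apical surface, went from 1089 ± 86.5 to 532 ± 130 (-1.06, SE 0.22, adjusted p = 0.0358) and stood at 1139 ± 380 with curcumin (1.08 against AOM/DSS, adjusted p = 0.0317). The first Car4 call was lost in 9 of 12 leave-outs, with adjusted p up to 0.134, and the other in 7 of 12, with adjusted p up to 0.0823. Both Car4 calls were also lost without the filter on low values, with the replicate block and within a single GC class. Car1, Car12 and Car13 were tested and not called, with Car1 at 1350 ± 760, 978 ± 840 and 1659 ± 234 FPKM.

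The other lists held no called gene in any of the 3 comparisons. Of the other Slc26 and Slc4 transporters 4 of 17 were tested, with the basolateral anion exchanger Slc4a2 at 54.9 ± 13.1 FPKM in controls, 54.5 ± 7.49 in AOM/DSS and 70.3 ± 14.2 with curcumin. Of the other Slc9 exchangers 4 of 10 were tested. Of the other Slc12 cotransporters 4 of 8 were tested, and of the other chloride channels 6 of 12. The calcium-activated channel Ano1 stood at 93.5 ± 26.9, 67.2 ± 22.1 and 71.4 ± 10.4 FPKM. Slc4a2 and Ano1 were named without regard to a call, to show the level of a well-known gene of their lists.

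All 6 potassium channel and sodium pump genes that drive chloride secretion were tested. The pump subunit Atp1b1 stood at 893 ± 64.7 FPKM in controls, 612 ± 47.4 in AOM/DSS and 803 ± 68.5 with curcumin. It was not called in AOM/DSS against control (-0.54, SE 0.12, adjusted p = 0.0506). Its AOM/DSS libraries did not overlap the controls, which also held for 6.02% of all tested genes. The potassium channel genes Kcnq1 and Kcne3 differed by -0.02 and 0.05 in AOM/DSS against control (adjusted p = 0.971 and 0.951). All 15 scaffolds and regulators were tested, among them Slc9a3r1, which encodes the NHE3 scaffold NHERF1, at 188 ± 34.7, 139 ± 15 and 225 ± 90.8 FPKM. Gucy2c, the guanylin receptor that switches colonocytes towards secretion, stood at 92 ± 8.51, 81.4 ± 9.34 and 90.1 ± 6.68. The median log2 difference over the 44 genes was -0.04, 0.10 and 0.02 in the 3 comparisons, beside 0.02, -0.01 and 0.01 over all tested genes.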

How the data were processed

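RNA of 12 colon epithelium libraries in 3 groups of 4 was sequenced. The deposited values are FPKM, 1 column per library for 24391 gene symbols, as the labels and values show. Per the submitters' processing notes, the build was mm9 and the tools named, in no stated role or order, were featureCounts 1.5.1, DESeq2 1.14.1, TopHat2 2.1.1, Picard, R 3.4.0 and Bowtie2 2.2.6. Each gene's FPKM were whole multiples of a step, within 0.001, for all 19233 genes above 0, which gave the reads behind each value.

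In R 4.3.3, limma 3.58.1 was fitted to log2(FPKM + 1), with an intensity trend and a mean for each group over all 12 libraries (9 residual degrees of freedom). Genes needed 4 libraries at 1 FPKM or above, and Benjamini-Hochberg adjustment ran over the 12052 that had them. The pseudocount of 1 understates changes of low genes. Named were all 9 members, up to 3 called genes per list and the 5 genes nearest to Slc26a3, of which 1 is not reported here. Slc4a2, Ano1, Car1, Car12, Car13, Atp1b1, Kcnq1, Kcne3, Slc9a3r1, Gucy2c, Aqp8, Spink4, Krt20, Cdhr5 and Ceacam20 were named after values were seen. The members and lists were chosen with earlier results of these data known. GC content and exon overlap came from an annotation of GRCm38, matched by symbol for 11971 tested genes (99.3%), so no mm9 coordinates are printed. The test was tried on simulated data. Alternatives changed the pseudocount, filter, scaling, spread model, GC handling and libraries. The fits on 1 GC class were added after seeing the data.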

Additional observations from a re-analysis of the deposited data

How the results depend on the processing

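Of 648 values of the 8 tested members over all alternatives, 609 kept their direction and their side of the threshold, 32 changed sign, 3 gained and 4 lost a call. The 4 losses were the 2 Slc26a3 calls within each GC class, in fits on 5 and on 7 libraries. No sign change touched a call. The causes of the changes below were not tested.

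Genes called in AOM/DSS against control numbered 153, and 54 with only the groups compared, 288 with library weights (2 members called), 238 with the GC class as covariate, 7 on the GC-rich and 4 on the AT-rich libraries (0 members in both), and 53 to 201 without 1 library (1 to 2 members). In curcumin against AOM/DSS they numbered 130, and 85, 468, 272, 8 and 1 in the same order (0 members called in the last pair), 231 with the GC trend removed, and 48 to 149 without 1 library. In curcumin against control they numbered 17, and 11 with a pseudocount of 0.1, 7 with no filter, 491 with library weights, 40 with the GC covariate, 29 with the GC trend removed, 0 in either GC class, and 4 to 35 without 1 library.

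On the recovered reads, limma voom called 169, 139 and 21 genes in the 3 comparisons. The replicate block, which pairs libraries by number, gave 82, 86 and 2 called genes, with Slc26a3 called in the first pair of comparisons (adjusted p = 0.0201 and 0.0303). Deviations of same-numbered libraries correlated from -0.287 to 0.456 between control and AOM/DSS, -0.333 to 0.282 between control and curcumin, and 0.036 to 0.357 between AOM/DSS and curcumin. The last were all positive, and in those groups the GC class follows the number (0 and 1 GC-rich, 2 and 3 AT-rich). No comparison had every correlation above 0.1, so the numbers were not taken as pairs.

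On the GC-rich libraries, the log2 fold changes of Slc9a3 (0.40), Slc12a2 (-0.20) and Cftr (-0.44) turned in AOM/DSS against control, Slc4a4 (0.05) in curcumin against AOM/DSS, and Slc12a2 (-1.02) and Slc20a1 (-0.18) in curcumin against control. On the AT-rich libraries Slc12a2 (0.42) turned in curcumin against AOM/DSS, and Cftr (0.25) and Car4 (-0.18) in curcumin against control. Library weights turned Slc12a2 (0.04) in curcumin against AOM/DSS, and Slc9a2 (-0.03), Cftr (0.09), Car4 (-0.18) and Slc20a1 (-0.17) against control. Curcumin against control also turned under quantile normalization (Slc12a2 -0.01, Car4 -0.08), a common sum (-0.04, -0.02) and the GC covariate (-0.02, -0.04), and with the GC trend removed (Cftr 0.03, Car4 -0.01). Without 1 library, AOM/DSS against control ranged from -0.33 to 0.19 for Slc9a3, -0.06 to 0.42 for Slc12a2 and -0.13 to 0.29 for Cftr. Curcumin against AOM/DSS ranged from -0.46 to 0.15 for Slc4a4, -0.39 to 0.05 for Slc12a2 and -0.36 to 0.06 for Cftr. Curcumin against control ranged from -0.16 to 0.02 for Slc26a3, -0.02 to 0.25 for Slc9a2, -0.26 to 0.26 for Slc12a2, -0.20 to 0.08 for Cftr, -0.19 to 0.11 for Car4 and -0.13 to 0.25 for Slc20a1. The 7 to 44 reads of Slc26a6 limit what can be seen of it.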
